A study of Mus musculus with 62 samples.

Results

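The genes described here are 36 interferon-stimulated genes of the mouse, followed in the cerebellum during the growth of melanomas that do or do not cause cachexia, a loss of body weight and muscle seen in cancer. They were chosen by name: 9 genes induced chiefly by type I interferon (the Ifit and Oas genes, Isg15 and Usp18), 8 GTPase genes of the interferon gamma response (the Gbp and Irgm families), 4 transcription factors (Stat2, Irf1, Irf7 and Irf9), 4 sensors of foreign nucleic acid (Ifih1, Dhx58, Eif2ak2 and Zbp1) and 11 others. Of the 47643 gene symbols in the deposited table, 35 were members. Gbp6 was not analysed here. Levels are in TPM, transcripts per 1e+06 transcripts, a unit that accounts for the length of each gene. Of the 35 members, 30 had a mean of at least 1 TPM over all libraries and entered the tests, among 14399 symbols that did. The tested members were 8 type I genes, 7 GTPase genes, 4 factors, 3 sensors and 8 others.

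Interferons are secreted proteins that set up an antiviral and antibacterial state in cells that bear their receptors. Type I interferons act through the kinases Jak1 and Tyk2 on a complex that includes Stat2 and Irf9 and binds the interferon-stimulated response element (ISRE) in the promoters of its target genes. Interferon gamma acts on promoters that hold the gamma-activated site (GAS), and through the factor Irf1, which it induces. In the brain most cell types can respond to type I interferon, and microglia and endothelial cells are among the strong responders.

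The samples were cerebella of female mice, 2 months old per the labels, and each belonged to 1 of 12 groups. The first treatment was an injection of melanoma cells labelled cachectic (CAC), the second an injection of melanoma cells labelled non-cachectic (NCAC), and the last a mock injection. Cerebella were collected 2, 4, 6 or 8 weeks (wk) afterwards. Each group held 5 libraries, except CAC at 8 wk with 7, which makes 62 in all. The labels give the strain in conflicting ways, as C57BL6/J in the sample fields and as NCI Ath/nude in the design of the series. If the mice were nude, both the tumour-bearing and the mock-injected animals lacked a thymus and so most T cells, whereas B cells and innate immune cells remain in such mice. The cells injected are named in the labels only as cachectic or non-cachectic melanoma cells.

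The tissue label was checked against marker genes. Pcp2, a Purkinje cell gene, was at 424 to 576 TPM, and Gabra6 and Cbln3, of granule cells, were at 827 to 1190 and at 1096 to 1480 TPM in the 62 libraries. Other tissue carried along was not uniform. Ttr, a choroid plexus gene, was at 4.34 to 6863 TPM in the 62 libraries. The summed TPM of 5 red cell genes was 128 to 20417 in CAC at 8 wk. The part of these tissues in the results was not tested. TPM scales every library to the same total, so the sequencing depth is unknown and no counting error can be given. The labels do not name the animal behind a library, and p-values measure the spread between these libraries. These are bulk samples, so fewer cells of a type and less RNA per cell cannot be told apart.

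The promoters of the members were searched for the 2 DNA elements through which interferon acts. The RefSeq promoter table for build GRCm38.p6 gives 250 bases before to 50 bases after each gene's start. In it 25 of the 36 members were matched and searched. The ISRE core was searched as GAAA, any 2 bases and GAAA on both strands, so that TTTC, any 2 bases and TTTC counts as a match. Overlapping matches were each counted. It was found in 16 of the 25 members, and in 3.99% of the 27025 symbols of the table. The GAS core was searched as TTCNNNGAA, which reads the same on both strands. It was found in 9 members, and in 9.55% of all symbols. Both were found in 6 members, and in 0.614% of all symbols. By role, the ISRE core was in 5 of 7 type I genes and in 6 of 6 GTPase genes that were matched, and the GAS core in 2 and in 3. Iigp1 was not searched. A match to these letters is a description of the window and not a site shown to be bound.

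The sequences that follow, read 5′ to 3′ on the strand of the gene, are of 3 type I genes and 6 GTPase genes, the sub-groups that are compared below. All 9 hold the ISRE core, and Oas1a, Igtp, Irgm2 and Gbp7 hold the GAS core as well. The capitals mark the ISRE core and the GAS core.
Ifit3: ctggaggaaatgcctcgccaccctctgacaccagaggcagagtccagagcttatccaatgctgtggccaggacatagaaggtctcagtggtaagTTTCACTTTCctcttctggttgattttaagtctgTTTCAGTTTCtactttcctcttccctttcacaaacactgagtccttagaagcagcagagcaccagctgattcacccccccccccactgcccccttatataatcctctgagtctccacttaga
Isg15: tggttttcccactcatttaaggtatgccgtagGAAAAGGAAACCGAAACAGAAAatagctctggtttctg
Oas1a: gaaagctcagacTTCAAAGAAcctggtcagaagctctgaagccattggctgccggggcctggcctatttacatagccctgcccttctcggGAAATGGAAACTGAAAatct
Igtp: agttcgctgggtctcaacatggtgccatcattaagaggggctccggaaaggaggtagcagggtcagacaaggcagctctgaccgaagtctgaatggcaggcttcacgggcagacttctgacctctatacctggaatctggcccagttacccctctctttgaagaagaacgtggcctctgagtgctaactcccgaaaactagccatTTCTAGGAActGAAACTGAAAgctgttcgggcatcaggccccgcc
Irgm2: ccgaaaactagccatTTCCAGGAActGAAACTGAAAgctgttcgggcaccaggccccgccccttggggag
Irgm1: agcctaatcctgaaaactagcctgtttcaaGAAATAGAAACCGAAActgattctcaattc
Gbp2: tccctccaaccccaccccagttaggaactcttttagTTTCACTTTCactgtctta
Gbp3: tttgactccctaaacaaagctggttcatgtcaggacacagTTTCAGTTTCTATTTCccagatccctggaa
Gbp7: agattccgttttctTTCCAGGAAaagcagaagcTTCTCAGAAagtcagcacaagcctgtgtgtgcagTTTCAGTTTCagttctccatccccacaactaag
Positions are counted from the first transcribed base, which is 0. Ifit3 (chr19:34583279-34583528, plus strand) is shown for the 250 bases before its start, with ISRE cores that begin at -156 and -122 and no GAS core in the window. Isg15 (chr4:156200859-156200928, minus strand) has 3 ISRE cores in 1 run, the first at -78, and they overlap by 4 bases each. Oas1a (chr5:120907526-120907635, minus strand) has overlapping ISRE cores at -20 and -14 and a GAS core at -98. The neighbours Igtp (chr11:58199306-58199555, plus strand) and Irgm2 (chr11:58214887-58214956, plus strand) share an arrangement, a GAS core followed after 2 bases by an ISRE core. In Igtp the GAS core begins at -45 and in Irgm2 at -75. Irgm1 (chr11:48871421-48871480, minus strand) has overlapping ISRE cores at -30 and -24. Gbp2 (chr3:142620568-142620622, plus strand) has an ISRE core at -59. Gbp3 (chr3:142559959-142560028, plus strand) has overlapping ISRE cores at -45 and -39. Gbp7 (chr3:142530216-142530315, plus strand) has GAS cores at -106 and -87 and an ISRE core at -53.

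The members spanned a wide range of levels in the cerebellum. Stat2, a factor of the type I response, had the highest mean over the 62 libraries, at 66.6 TPM (56.3 to 82.5). Ifi27, which encodes a small membrane protein, followed at 32.0 TPM, and Ifit3, an Ifit family protein that acts against viral RNA, at 21.0 TPM, between 10.7 and 58.5 TPM. Usp18, which removes Isg15 from proteins and dampens type I signalling, was at 1.04 TPM, and Iigp1, a GTPase that attacks the vacuoles of intracellular parasites, at 1.07 TPM, between 0.156 and 8.71 TPM. The 5 members below the minimum had means of 0.389 TPM (Oas2), 0.157 (Zbp1), 0.119 (Mx1), 0.768 (Mx2) and 0.533 (Ifi44), and were not tested. Mx1 and Mx2 belong to the dynamin-like antiviral GTPases, though GENCODE lists mouse Mx2 as a polymorphic pseudogene, Oas2 an oligoadenylate synthetase, and Zbp1 a sensor of Z-form nucleic acid.

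**Figure D1:**
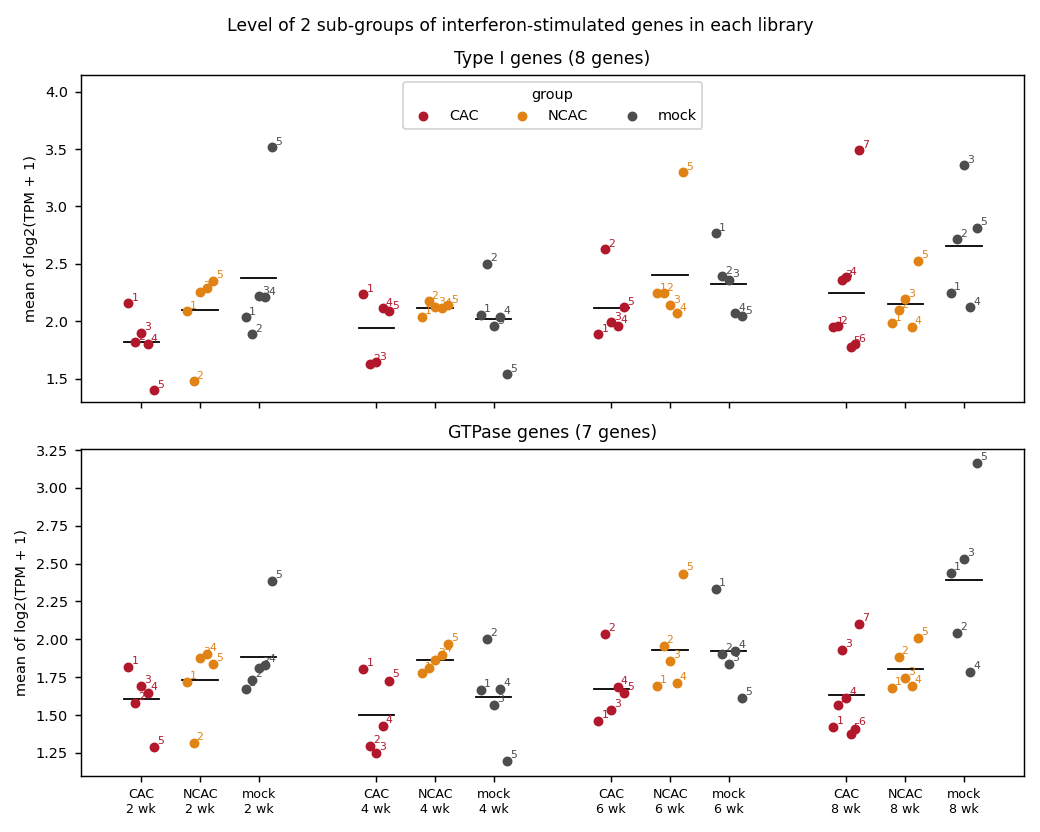
Mean log2(TPM + 1) of the 8 tested type I genes (top) and of the 7 tested GTPase genes (bottom) in each of the 62 libraries, by treatment and week after injection, with the replicate number beside each point and a line at the group mean. Mock 2 wk replicate 5 and CAC 8 wk replicate 7 stand highest for the type I genes, at 3.515 and 3.494, and mock 8 wk replicate 5 stands highest for the GTPase genes, at 3.161.

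A few libraries stood apart in the members, and they came from all 3 treatments. On the mean log2(TPM + 1) of the 8 type I genes, mock 2 wk replicate 5 ranked 1 of 62 at 3.515, CAC 8 wk replicate 7 ranked 2 at 3.494, mock 8 wk replicate 3 ranked 3 at 3.359 and NCAC 6 wk replicate 5 ranked 4 at 3.302. Of the 30 tested members, 29 had their highest value of the group in mock 2 wk replicate 5, 28 in NCAC 6 wk replicate 5 and 25 in CAC 8 wk replicate 7. Of all tested symbols, 14.9%, 17.1% and 6.85% had their highest value in those libraries. At the low end, CAC 2 wk replicate 5 ranked 62 for type I genes at 1.401 and NCAC 2 wk replicate 2 ranked 61 at 1.476.

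The type I genes and the GTPase genes did not follow each other in every library. Mock 8 wk replicate 5 ranked 1 for the GTPase genes, at 3.161, and 5 for the type I genes, and all 7 GTPase genes had their highest value of the group in it. CAC 8 wk replicate 7 ranked 2 for the type I genes and 7 for the GTPase genes, at 2.099. Mock 8 wk replicate 1 ranked 18 for the type I genes and 3 for the GTPase genes, at 2.436.

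**Figure D2:**
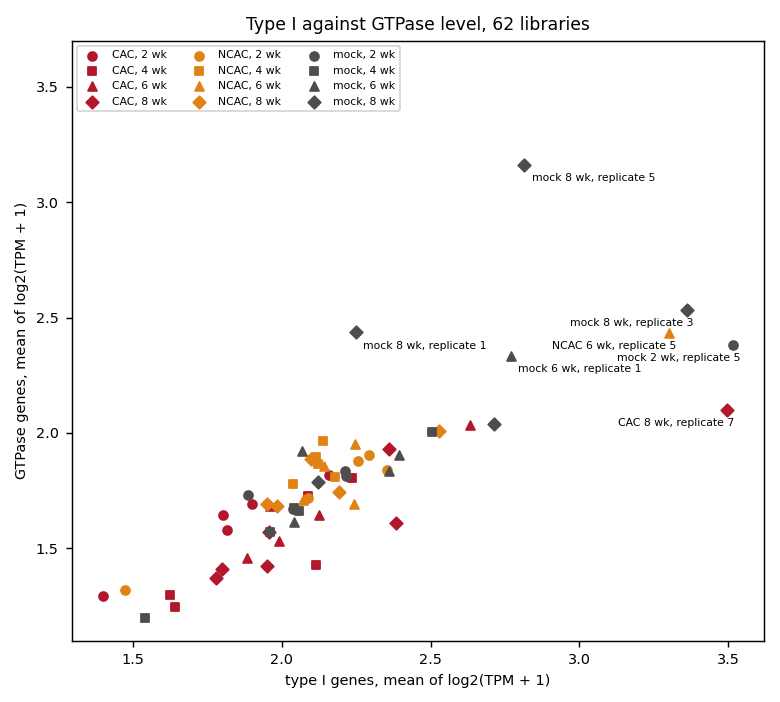
Mean log2(TPM + 1) of the 7 GTPase genes against that of the 8 type I genes, with a point for each of the 62 libraries. Mock 8 wk replicate 5 lies high in the GTPase genes (3.161) for its type I level (2.815), and CAC 8 wk replicate 7 lies high in the type I genes (3.494) for its GTPase level (2.099).

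The comparison of CAC with mock at 8 wk asked how the members differed when the tumour-bearing mice had reached the last time point. The GTPase genes of the interferon gamma response were lower in CAC, 6 of 7 past the test, by -0.64 to -1.08 in log2 fold change. Of these, Iigp1 met the minimum level for testing only through the mock libraries at 8 wk. None of the 8 type I genes passed. Of the 30 members, 8 were called (limma, adjusted p under 0.05), 7 lower and 1 higher, in a comparison in which 20.8% of all tested symbols were called, 13.4% higher and 7.34% lower. Before adjustment 10 were lower and 1 higher at p under 0.05, against 12.7% of all symbols lower and 21.2% higher. The median log2 fold change was -0.35 over the members and 0.02 over all tested symbols, and 27 of the 30 members were below 0, against 43.3% of all symbols. The split of all calls depends on the scaling: 1933 were higher and 1057 lower as deposited, 1520 and 1497 with median-of-ratios scaling, and 1471 and 1657 with quantile normalization. The members were split 1 higher and 7 lower under each of these.

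The guanylate-binding proteins are large GTPases that gather on the membranes around intracellular pathogens. Gbp2 was at 1.98 to 5.05 TPM in the 7 CAC libraries, with a median of 3.42, and at 6.77, 3.55, 5.6, 5.38 and 11.6 TPM in the mock libraries. The groups overlapped, with 2 CAC libraries, at 3.88 and 5.05, above the lowest mock library. The mean was 3.14 ± 1.15 TPM in CAC (SD, n = 7) and 6.58 ± 3.02 TPM in mock (SD, n = 5), and the log2 fold change was -0.83 ± 0.184 (SE; adjusted p = 0.000832). Gbp3 was at 1.36 to 3.13 TPM in CAC, with a median of 1.72, and at 4.3, 3.95, 7.17, 2.33 and 7.17 TPM in mock. Mock replicate 4 alone lay within the CAC range. Its log2 fold change was -0.94 ± 0.232 (adjusted p = 0.00245). Gbp7 was at 1.48 to 2.79 TPM in CAC, with a median of 1.69, and at 3.03, 2.95, 4.38, 2.45 and 4.81 TPM in mock. Again mock replicate 4 was the only mock library within the CAC range, and the log2 fold change was -0.64 ± 0.131 (adjusted p = 0.000328).

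The immunity-related GTPases act on the same pathogen vacuoles, some as effectors and some, the Irgm proteins, as regulators of the others. Igtp, also called Irgm3, was at 2.04 to 5.85 TPM in CAC, with a median of 2.68, and at 5.86, 4.65, 8.09, 3.44 and 12.1 TPM in mock. Irgm2 was at 1.38 to 3.1 TPM in CAC, with a median of 1.63, and at 3.21, 2.58, 3.67, 1.93 and 6.52 TPM in mock. For both genes mock replicates 2 and 4 lay within the CAC range and the other 3 mock libraries above it. The log2 fold change was -0.88 ± 0.201 for Igtp (adjusted p = 0.00119) and -0.65 ± 0.161 for Irgm2 (adjusted p = 0.00255). Iigp1 was at 0.28 to 1.87 TPM in CAC, with a median of 0.538, and at 4.13, 1.54, 1.64, 0.645 and 8.71 TPM in mock. Mock replicates 1 and 5 stood above every CAC library and the other 3 within their range. Its mean was 0.735 ± 0.567 TPM in CAC (SD, n = 7) and 3.33 ± 3.28 TPM in mock (SD, n = 5), and its log2 fold change of -1.08 ± 0.246 was the largest in size among the members (adjusted p = 0.00112). Iigp1 had a mean of 1.07 TPM over the 62 libraries, and without the mock libraries at 8 wk it lay below the minimum of 1 TPM. It was thus admitted to the test by the group in which it is high. Irgm1 was the GTPase gene that did not pass, at -0.29 ± 0.128 (adjusted p = 0.0975). The counting of reads between Igtp and Irgm2, which share 162 exon bases, and between Gbp7 and Gm43802, which share 637, is not given in the sources used here, so these values are uncertain to that extent.

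**Figure D3:**
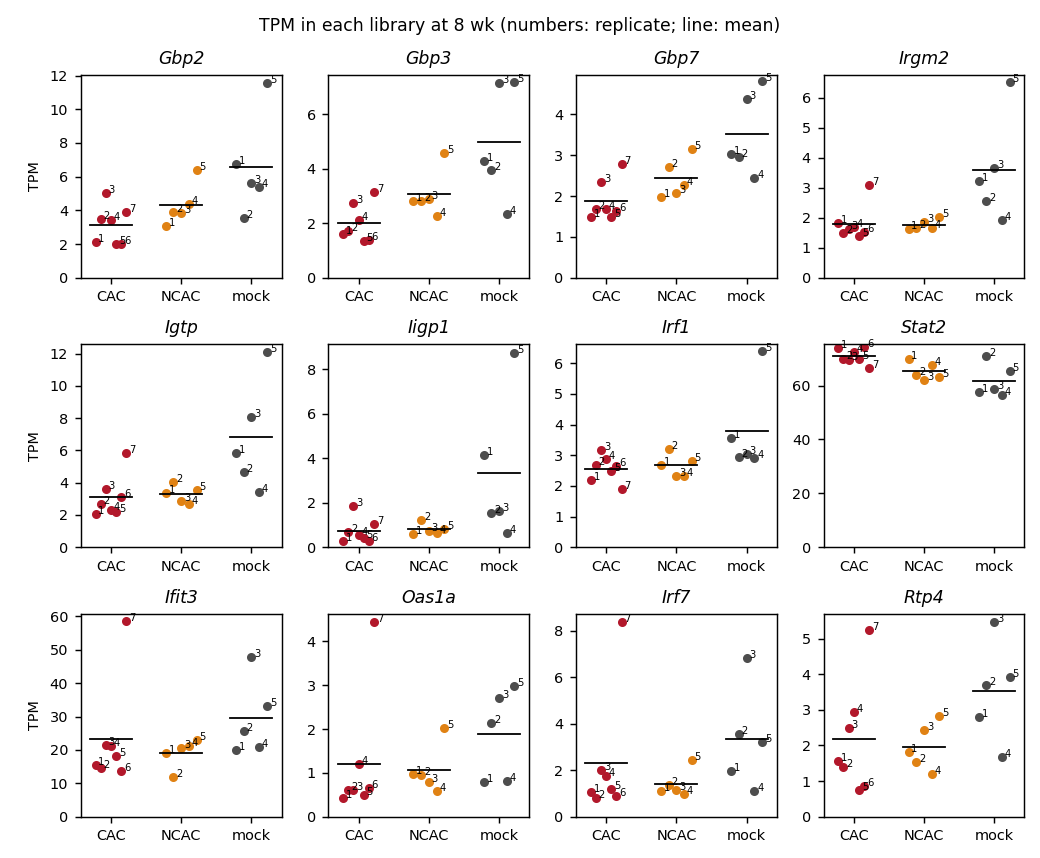
TPM of 12 members at 8 wk in CAC, NCAC and mock libraries, with a point and a replicate number for each library and a line at the group mean. The 6 GTPase genes shown have their highest values in mock, with Iigp1 at 8.71 TPM in mock replicate 5, and Ifit3 has its highest value, 58.5 TPM, in CAC replicate 7.

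Among the factors, 2 passed the test, in opposite directions. Irf1, which drives many targets of interferon gamma, was at 1.91 to 3.17 TPM in CAC, with a median of 2.64, and at 3.58, 2.93, 3.04, 2.92 and 6.4 TPM in mock. Mock replicates 1 and 5 stood above every CAC library, and the log2 fold change was -0.38 ± 0.105 (adjusted p = 0.00645). Without mock replicate 5 it was -0.21 (adjusted p = 0.095). Stat2 was at 66.7 to 74.5 TPM in CAC, with a median of 69.8, and at 57.8, 71, 58.7, 56.3 and 65.4 TPM in mock. All CAC libraries lay above 4 of the 5 mock libraries, and the log2 fold change was 0.20 ± 0.0576 (adjusted p = 0.00946). Irf7, which amplifies the type I response, was at 0.818 to 8.36 TPM in CAC, with a median of 1.19, and at 1.98, 3.55, 6.84, 1.12 and 3.21 TPM in mock (log2 fold change -0.52, adjusted p = 0.269). Irf9 was at 6.17 to 13.8 TPM in CAC, with a median of 8.23, and at 10.2, 8.65, 11.5, 9.07 and 10.9 TPM in mock (log2 fold change -0.20, adjusted p = 0.355). The groups overlapped in both genes, and the highest library of either was CAC replicate 7.

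The 8 type I genes had log2 fold changes below 0, with a median of -0.45, and none passed the test. Ifit3 was at 15.6, 14.6, 21.5, 21.3, 18.3, 13.8 and 58.5 TPM in CAC and at 19.9, 25.7, 47.9, 20.8 and 33.1 TPM in mock. CAC replicate 7 held the highest value of all, and the other 6 CAC libraries lay below 3 of the 5 mock libraries. With all libraries Ifit3 had a log2 fold change of -0.42 (adjusted p = 0.223). Ifit3b, a near-identical copy of Ifit3 (97.8% over 1700 bases), was at 6.05 to 23.7 TPM in CAC, with a median of 7.57, and at 8.91, 11.3, 21.9, 7.69 and 15.6 TPM in mock. How reads were divided between the copies is not given in the sources used here, so their values are not independent.

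The remaining type I genes showed the same spread. Isg15, a ubiquitin-like protein that is joined to other proteins, was at 1.47 to 8.97 TPM in CAC, with a median of 2.89, and at 3.25, 7.09, 11.5, 3.87 and 5 TPM in mock. Oas1a, which makes the oligoadenylates that activate the RNA-cleaving enzyme RNase L, was at 0.437 to 4.43 TPM in CAC, with a median of 0.608, and at 0.791, 2.15, 2.72, 0.825 and 2.98 TPM in mock. It has a near-identical copy, Oas1g (97.6% over 1861 bases). Usp18 was at 0.624 to 4.44 TPM in CAC, with a median of 0.681, and at 1.13, 1.69, 4.03, 0.689 and 1.55 TPM in mock. In these 3 genes the CAC median lay below every mock library. Usp18 had a mean of 1.04 TPM over the 62 libraries, and without the mock libraries at 8 wk it lay below the minimum of 1 TPM. Its entry to the test thus depended on the group in which it is high. The highest CAC library was replicate 7 for Oas1a and Usp18, and replicate 3 for Isg15, at 8.97 TPM against 8.07 TPM in replicate 7. The log2 fold changes were -0.53 for Isg15 (adjusted p = 0.242), -0.48 for Oas1a (adjusted p = 0.192), -0.32 for Usp18 (adjusted p = 0.457) and -0.10 for Ifit2 (adjusted p = 0.543).

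Of the 3 tested sensors and the 8 other members none passed the test at 8 wk. Eif2ak2, the kinase that stops translation when it binds double-stranded RNA, was at 5.65 to 9.2 TPM in CAC, with a median of 7.56, and at 7.31, 8.63, 10.1, 5.98 and 10 TPM in mock. Dhx58, a regulator of the RNA sensors, was at 0.868 to 2.15 TPM in CAC, with a median of 1.11, and at 1.31, 1.15, 1.34, 1.31 and 1.41 TPM in mock. The groups overlapped in both. Rtp4, which binds viral RNA and acts as a chaperone of receptors, was at 0.763 to 5.25 TPM in CAC, with a median of 1.57, and at 2.79, 3.71, 5.46, 1.69 and 3.93 TPM in mock (log2 fold change -0.58, adjusted p = 0.131). Xaf1, which favours cell death, was at 1.01 to 2.64 TPM in CAC, with a median of 1.37, and at 1.7, 2.23, 2.81, 1.29 and 2.1 TPM in mock (log2 fold change -0.28, adjusted p = 0.14). The groups overlapped in both, and the highest CAC library was again replicate 7. The log2 fold changes of the members not yet named were -0.50 for Ifit1 and -0.49 for Oasl2 among the type I genes, and -0.15 for Eif2ak2, -0.12 for Ifih1 and -0.10 for Dhx58 among the sensors. Among the others they were -0.28 for Bst2, -0.20 for Parp14, -0.13 for Trim30a, -0.11 for Ifi27, 0.05 for Ifi35 and 0.18 for Lgals3bp.

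With 1 library left out, 7 to 15 members passed at 8 wk, and the number moved most without CAC replicate 7. Without CAC replicate 7, 15 members were called, 14 of them lower: the 7 called lower before and Ifit3, Ifit3b, Oas1a, Irgm1, Irf7, Rtp4 and Xaf1. The adjusted p was then 0.0239 for Ifit3, at a log2 fold change of -0.66, and 0.025 for Oas1a, at -0.73. The median of the type I genes was -0.68 and that of the GTPase genes -0.88. Without mock replicate 5, 7 members were called, with the same 6 GTPase genes among them, and the GTPase median was -0.63. Without both mock replicates 3 and 5, a pair chosen after seeing the data, 4 were called, Gbp2, Gbp7 and Iigp1 lower and Stat2 higher. The medians were then -0.12 for the type I genes and -0.49 for the GTPase genes. Without both mock replicates 1 and 5, also chosen after seeing the data, 3 were called, Gbp3 and Gbp7 lower and Stat2 higher. A library left out changes the test of every symbol, and the share of all symbols called in each refit is not given here. A change in the members alone cannot be told from these counts.

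**Figure D4:**
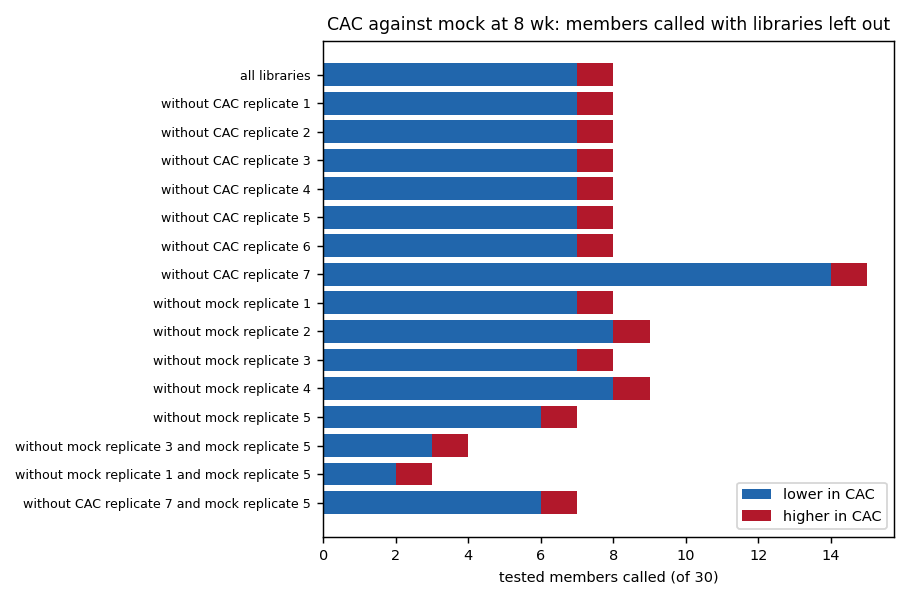
Number of the 30 tested members called in CAC against mock at 8 wk (adjusted p under 0.05), lower and higher in CAC, with all libraries and with the named libraries left out. The bar without CAC replicate 7 reaches 15 members and the bar without mock replicates 1 and 5 reaches 3, against 8 with all libraries.

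Markers of other cells also differed between these groups. In CAC against mock at 8 wk, 13.4% of all tested symbols were called higher and 7.34% lower. The summed TPM of 14 microglial genes was 245 to 323 in CAC (median 272), 217 to 256 in NCAC (median 245) and 247 to 485 in mock (median 316), and mock replicate 5 was the highest. Of the 14, 5 were called lower in CAC against mock, among them Aif1 (-0.72) and P2ry12 (-0.39). The summed TPM of 10 lymphocyte genes was 5.88 to 9.81 in CAC, 5.27 to 8.22 in NCAC and 6.19 to 545 in mock (median 16.1). The defining T cell gene Cd3e was at 0 in every CAC and NCAC library at 8 wk and at 0.122, 0, 0.0637, 0 and 1.35 TPM in mock. Over all weeks and treatments Cd3e was at 0 in 52 of 62 libraries, so a 0 does not set the tumour groups apart. Of the other T cell genes listed, Cd3d was at 0 in 42 of 62 libraries, Cd8a in 55 and Cd4 in 3. Igkc, an immunoglobulin light chain, was at 426 TPM in mock replicate 5 and did not exceed 10.6 TPM in the other mock libraries or 3.35 TPM in CAC. Without mock replicate 5 the same 6 GTPase genes passed, and without mock replicates 1 and 5, the libraries with the highest lymphocyte sums (20.4 and 545 TPM), 2 did. The summed TPM of 10 endothelial genes was 423 to 509 in CAC, 369 to 388 in NCAC and 376 to 398 in mock, so CAC lay above both without overlap. Of the 10, 3 were called higher and 2 lower in CAC against mock. The summed TPM of 8 oligodendrocyte genes was 1869 to 2387 in CAC, 2417 to 2774 in NCAC and 2344 to 3172 in mock, and 7 of the 8 were called lower in CAC against mock. The part of these cell types in the result was not tested.

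The comparison of NCAC with mock at 8 wk asked whether a melanoma without cachexia went with the same genes. No member was called in limma, in a comparison in which 0% of all tested symbols were, and 15 members were lower at an unadjusted p under 0.05, as were 3.76% of all symbols. The median log2 fold change was -0.42 over the members, with 29 of 30 below 0, and 0.00 over all symbols. By role it was -0.49 for the type I genes and -0.50 for the GTPase genes. This comparison shares its 5 mock libraries with that of CAC, so the values of the 2 are given side by side and not as independent results.

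Among the GTPase genes, Irgm2, Igtp and Iigp1 had log2 fold changes close to those of CAC. Irgm2 was at 1.63, 1.65, 1.87, 1.67 and 2.03 TPM in NCAC, of which 4 were below the lowest mock library (1.93 TPM). The log2 fold change against mock was -0.65 ± 0.174 in NCAC (adjusted p = 0.464) and -0.65 ± 0.161 in CAC. Iigp1 and Igtp showed a like pattern, with every NCAC library below the highest 4 mock libraries in both. Iigp1 was at 0.592, 1.23, 0.748, 0.659 and 0.811 TPM in NCAC, and its log2 fold change against mock was -0.98 ± 0.265 in NCAC (adjusted p = 0.464) and -1.08 ± 0.246 in CAC. Igtp was at 3.34, 4.02, 2.86, 2.68 and 3.58 TPM in NCAC, and its log2 fold change was -0.77 ± 0.217 in NCAC (adjusted p = 0.475) and -0.88 ± 0.201 in CAC. The test passed for CAC alone in these 3 genes, and their log2 fold change of CAC against NCAC lay between -0.11 and -0.00. The guanylate-binding genes had group means between those of CAC and mock, with Gbp2 at 3.08, 3.9, 3.82, 4.39 and 6.39 TPM in NCAC. Gbp3 was at 2.83, 2.83, 2.89, 2.26 and 4.6 TPM and Gbp7 at 1.97, 2.71, 2.08, 2.27 and 3.16 TPM in NCAC. Replicate 5 was the highest NCAC library in all 3, and its Gbp2 lay above 3 of the 5 mock libraries. The log2 fold change of NCAC against mock was -0.46 for Gbp2, -0.50 for Gbp3 and -0.38 for Gbp7.

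Members of the other roles also had log2 fold changes below 0 in NCAC against mock, without passing the test. Ifit2, an Ifit protein that binds viral RNA, was at 3.67, 4.19, 5.25, 4.19 and 4.76 TPM in NCAC, and at 5.76, 5.2, 7.12, 5.13 and 6.06 TPM in mock. Usp18 was at 0.331, 0.904, 0.669, 0.57 and 0.81 TPM in NCAC, and Trim30a, a ubiquitin ligase that restrains innate signalling, at 1, 1.16, 0.866, 0.762 and 1.1 TPM. Trim30a was at 1.39, 1.75, 2.4, 1.06 and 2.25 TPM in mock. The log2 fold change of NCAC against mock was -0.34 ± 0.109 for Ifit2 (adjusted p = 0.528) and -0.46 ± 0.137 for Trim30a (adjusted p = 0.51). In Ifit2, 4 of the 5 NCAC libraries lay below the lowest mock library, and in Trim30a 3 did. The groups overlapped in the factors as well. Irf7 was at 1.1, 1.36, 1.14, 0.991 and 2.42 TPM and Irf1 at 2.7, 3.2, 2.32, 2.33 and 2.8 TPM in NCAC. Parp14, an ADP-ribosyltransferase, was at 0.854, 0.954, 1.04, 0.724 and 1.25 TPM in NCAC, and at 1.34, 1.46, 1.88, 0.924 and 2.54 TPM in mock (log2 fold change -0.39, adjusted p = 0.588). Irf1 had a log2 fold change of -0.34 and Irf7 of -0.74 against mock.

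The size of this difference moved with the mock libraries left in. Without mock replicate 5 the number of members lower at an unadjusted p under 0.05 was 6 and the median -0.32. Without mock replicates 3 and 5 together, chosen after seeing the data, the number was 1 and the median -0.19. The share of all symbols at that level in these refits is not given here. A change in the members alone cannot be told from the counts.

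The direct comparison of CAC with NCAC at 8 wk, which uses no mock library, asked which members go with cachexia among tumour-bearing mice. No member passed the test in limma, in a comparison in which 11.8% of all symbols were called, 7.76% higher and 4.01% lower. At an unadjusted p under 0.05 there were 4 higher and 2 lower. The shares of all symbols at that level were 16.6% higher and 9.08% lower. The median was 0.10 over the members, 0.09 over the type I genes and -0.11 over the GTPase genes. Without CAC replicate 7 the median over the members was -0.06, with 18 of 30 below 0, against 11 of 30 with all libraries. Igtp and Iigp1 had a log2 fold change of -0.11 each and Irgm2 of -0.00, while Gbp3 was at -0.45 (adjusted p = 0.214), Gbp2 at -0.38 (adjusted p = 0.182) and Gbp7 at -0.26 (adjusted p = 0.192). Lgals3bp, a secreted glycoprotein that binds galectins, was at 11.8 to 29.9 TPM in CAC, with a median of 21.4, and at 10, 12, 11, 8.84 and 12.9 TPM in NCAC. Of the 7 CAC libraries 6 lay above every NCAC library, and the log2 fold change was 0.70 ± 0.266 (adjusted p = 0.0781). Trim30a had a log2 fold change of 0.33 (adjusted p = 0.0752). Without CAC replicate 3, or without CAC replicate 5, 1 member was called.

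At 6 wk CAC differed from NCAC in 1 member, in a comparison in which 9.45% of all symbols were called, 7.47% higher and 1.99% lower. Stat2 was at 74, 64.1, 75.2, 71.9 and 66.5 TPM in CAC, at 67.2, 58.9, 58.9, 62.8 and 57.5 TPM in NCAC and at 67.9, 63.2, 62.9, 72.3 and 67.7 TPM in mock. NCAC had the lowest values, with 1 library inside the CAC range. The log2 fold change of CAC against NCAC was 0.20 ± 0.0623 (adjusted p = 0.0334). It was not called without CAC replicates 1 or 3 (adjusted p = 0.111 and 0.0943) or NCAC replicates 2, 3 or 5 (0.0797, 0.0778 and 0.0975), nor with median-of-ratios scaling (0.0653) or quantile normalization (0.0593). At 2 and 4 wk no member was called between CAC and NCAC, where 0% and 0.00694% of all symbols were. At an unadjusted p under 0.05 there were 2 members at 2 wk and 3 at 4 wk, against 6.85% and 9.47% of all symbols.

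**Figure D5:**
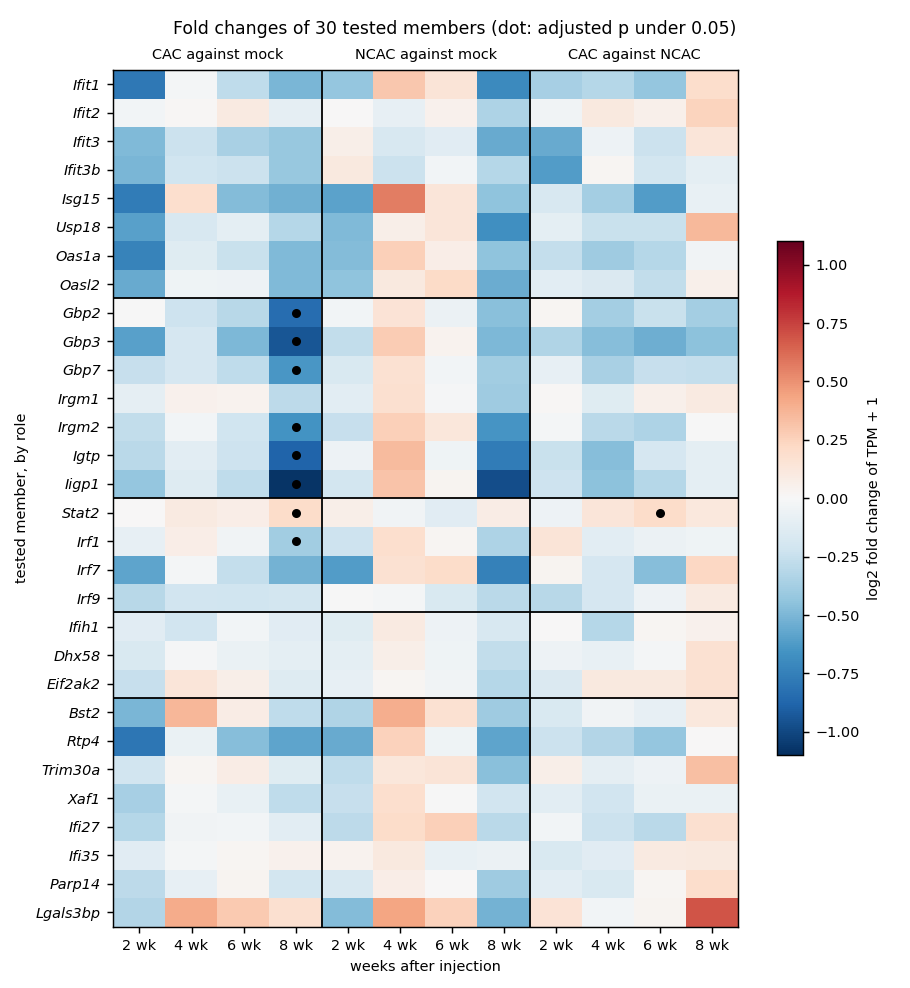
Log2 fold change (colour) of each of the 30 tested members, in rows by role, for CAC against mock, NCAC against mock and CAC against NCAC at 2, 4, 6 and 8 wk after injection, with a dot where the adjusted p was under 0.05. In the GTPase rows 6 of 7 carry a dot for CAC against mock at 8 wk, and the only other column with a dot is CAC against NCAC at 6 wk (Stat2).

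Before 8 wk no member differed from mock at the adjusted threshold. At 2 wk none was called for CAC against mock, where 0% of all symbols were called. At an unadjusted p under 0.05, 8 members were lower, as were 1.44% of all symbols, and 29 of 30 were below 0, with a median of -0.31. The type I median was -0.57 and the GTPase median -0.27. Rtp4 was at 2.46, 1.14, 1.65, 1.65 and 0.378 TPM in CAC and at 2.33, 2.33, 2.47, 2.82 and 6.58 TPM in mock. Oas1a was at 0.975, 0.507, 0.393, 0.617 and 0.105 TPM in CAC and at 1.23, 0.82, 1.58, 0.981 and 3.52 TPM in mock. Isg15 was at 3.58, 2.37, 3.18, 2.37 and 1.7 TPM in CAC and at 5.68, 2.56, 4.07, 4.77 and 11 TPM in mock. CAC replicate 5 was the lowest and mock replicate 5 the highest library in each of these 3 genes. The log2 fold changes were -0.79 ± 0.299 for Rtp4, -0.73 ± 0.284 for Oas1a and -0.77 ± 0.344 for Isg15, each with an adjusted p of 1 in limma. Without mock replicate 5, 0 members passed an unadjusted p of 0.05 and the type I median was -0.21. Without CAC replicate 5, 2 passed, and without CAC replicate 4, 5 passed. The share of all symbols that passed in these refits is not given here. For NCAC against mock at 2 wk, where 0.0139% of all symbols were called, no member was called. Before adjustment 2 members were lower at p under 0.05, against 2.15% of all symbols, and the median was -0.21, or -0.08 without mock replicate 5.

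At 4 and 6 wk no member passed the test against mock in either tumour group. For CAC against mock 0 members were called at 4 wk and 0 at 6 wk in limma, where 0.00694% and 1.72% of all symbols were called. At an unadjusted p under 0.05 there was also no member in either week, against 7.98% and 16% of all symbols. Leaving out 1 library brought at most 4 members past that level at 6 wk (without CAC replicate 2) and 1 at 4 wk. The share of all symbols past it in those refits is not given here. The medians were -0.04 at 4 wk and -0.09 at 6 wk. By role, the type I median was -0.09 at 4 wk and -0.24 at 6 wk, and the GTPase median -0.14 at 4 wk and -0.28 at 6 wk, with 6 of 7 GTPase genes below 0 in each week. For NCAC against mock, where 0% of symbols were called in each week, the median was 0.16 at 4 wk, with 5 of 30 members and 0 of 7 GTPase genes below 0, and 0.01 at 6 wk. The type I median was 0.08 at 4 wk and 0.10 at 6 wk, and the GTPase median 0.26 at 4 wk and -0.01 at 6 wk. Without NCAC 6 wk replicate 5 the medians at 6 wk were -0.12 over the members, over the type I genes and over the GTPase genes, with 25 of 30 members below 0. None was called. At an unadjusted p under 0.05 there was no member at 4 wk, and Stat2, lower in NCAC, at 6 wk, against 2.13% and 8.35% of all symbols.

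Averaged over the 4 weeks, CAC differed from mock in 12 members, 11 lower and 1 higher, in a comparison in which 23% of all symbols were called, 16.3% higher and 6.69% lower. With median-of-ratios scaling 1564 symbols were higher and 1604 lower, and of the members 1 was higher and 12 lower. The same 6 GTPase genes were lower as at 8 wk, from Gbp3 (-0.56 ± 0.123, adjusted p = 0.000852) and Iigp1 (-0.48) to Irgm2 (-0.29), with Igtp at -0.38 and Gbp2 at -0.34. The mean of the weeks includes the 8 wk libraries, so these calls are not independent of those at 8 wk. Iigp1 again met the minimum level only through the mock libraries at 8 wk. Gbp7, at -0.34 ± 0.0692, had the lowest adjusted p of the members (0.000333). Of the type I genes, 3 were lower, Ifit3 (-0.38 ± 0.129, adjusted p = 0.0289), Ifit3b (-0.34 ± 0.122, adjusted p = 0.0346) and Oas1a (-0.40 ± 0.139, adjusted p = 0.0318). Rtp4 (-0.48 ± 0.147, adjusted p = 0.0146) and Irf9 (-0.23 ± 0.0776, adjusted p = 0.0238) were lower too, and Stat2 was higher, at 0.09 ± 0.0306 (adjusted p = 0.0202). The call of Stat2 was lost with mitochondrially encoded genes removed (adjusted p = 0.0606). The 3 type I calls each depended on single libraries. Ifit3 was not called without mock 2 wk replicate 5 (adjusted p = 0.0611) or without mock 8 wk replicate 3 (0.0583), and Ifit3b (0.0749 and 0.0712) and Oas1a (0.0632 and 0.054) were not either. Ifit3b also missed the threshold without any 1 of CAC 2 wk replicate 5, CAC 4 wk replicate 2, CAC 6 wk replicate 1, CAC 8 wk replicate 6 or mock 8 wk replicate 5, at adjusted p between 0.0508 and 0.0571. Oas1a did so without any 1 of CAC 2 wk replicate 5, CAC 4 wk replicate 3, mock 4 wk replicate 2, CAC 6 wk replicate 1 or mock 8 wk replicate 5, at adjusted p between 0.0517 and 0.0564. For NCAC against mock over the 4 weeks no member was called in limma, where 0% of all symbols were, and none reached an unadjusted p under 0.05, where 3.98% of all symbols did. Leaving out 1 library brought at most 5 members past that level (without NCAC 6 wk replicate 5), and the share of all symbols in that refit is not given here. The median was -0.11, with 29 of 30 members below 0.

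Within each treatment 8 wk was set against 2 wk. In CAC, 2 members were higher at 8 wk and none lower, against 17.9% of all symbols called and 8.26% called higher. Bst2, or tetherin, which holds budding viruses at the cell surface, was at 9.06 to 26.5 TPM at 8 wk, with a median of 11.4, and at 6.71, 11.4, 5.93, 5.86 and 3.37 TPM at 2 wk. Lgals3bp was at 11.8 to 29.9 TPM at 8 wk, with a median of 21.4, and at 6.83, 11.6, 11.5, 8.77 and 4.66 TPM at 2 wk. All 7 libraries at 8 wk lay above the 5 at 2 wk for Lgals3bp, and 1 library at 2 wk overlapped for Bst2. In CAC the summed TPM of 9 choroid plexus genes was 32.8 to 5764 at 2 wk and 2384 to 7030 at 8 wk, and its part was not tested. The difference on the log2 scale was 0.87 ± 0.251 for Bst2 (adjusted p = 0.0108) and 1.05 ± 0.266 for Lgals3bp (adjusted p = 0.00369). Bst2 was not called without CAC 2 wk replicate 5 (0.69, adjusted p = 0.0679), and without CAC 8 wk replicate 5 the number called was 5, all higher. In mock the same difference was 0.65 for Bst2 and 0.55 for Lgals3bp, and in NCAC 0.59 and 0.51.

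In mock, the median difference of the members between 8 and 2 wk was 0.27, with 28 of 30 above 0, while the median of all symbols was -0.02. No member was called in mock in limma, where 0% of all symbols were, and 8 were higher at an unadjusted p under 0.05, against 3.08% of all symbols, 5 of them GTPase genes. With mock 8 wk replicates 3 and 5 left out together the median was 0.02 and 0 members passed the unadjusted p. Without mock 8 wk replicate 5 alone 4 members passed it, without mock 8 wk replicate 4, 14 did, and without mock 2 wk replicate 5, 16 did. How many of all symbols passed in these refits is not given here, so a change in the members alone cannot be told. In NCAC no member was called, where 0.0486% of all symbols were, and 1 was higher at an unadjusted p under 0.05, against 13.6% of all symbols in either direction. The median was 0.06 in NCAC, or -0.05 without NCAC 2 wk replicate 2, and 0.28 in CAC, or 0.14 without CAC 8 wk replicate 7. By role, the GTPase median was 0.10 in CAC, 0.09 in NCAC and 0.49 in mock, and the type I median 0.44 in CAC, 0.00 in NCAC and 0.31 in mock. The test of whether the difference between CAC and mock itself changed between 8 and 2 wk called no member in limma, where 1.55% of all symbols were called and 0.958% were called higher, and 3 members reached an unadjusted p under 0.05, against 16.5% of all symbols. Gbp2 had a change of -0.83 ± 0.271 (adjusted p = 0.0951). Without CAC 8 wk replicate 3, or without mock 8 wk replicate 2, 1 member was called.

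Genes of the interferon pathway outside the member list were read from lists of ligands, receptors and kinases, inhibitors, upstream sensors and further targets. Of 105 such genes 61 were tested. At 8 wk 6 were higher and 11 lower in CAC against mock, where 13.4% of all symbols were higher and 7.34% lower, and the median was -0.05. None of the 10 ligand genes reached the minimum for testing. Ifnb1 was listed at 0 in all 62 libraries. Ifng was listed at 0 in 56 of 62 libraries, in all CAC and NCAC libraries at 8 wk, and at 0, 0.156, 0, 0.0758 and 0.0764 TPM in mock at 8 wk. Of the receptor chains, Ifngr2 (-0.16, adjusted p = 0.00174) and Ifnar2 (-0.20, adjusted p = 0.0114) were lower in CAC, and Ifngr1 (-0.03, adjusted p = 0.735) and Ifnar1 (-0.02, adjusted p = 0.79) did not pass.

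Of the further targets 9 of 31 were lower in CAC and 2 higher, and they included other GTPase genes, Gbp4 at -0.77 (adjusted p = 0.000545) and Tgtp1 at -0.92 (adjusted p = 0.00119). Of the inhibitors 3 of 8 were higher in CAC and none lower. They were Ptpn11 (0.25, adjusted p = 4.46e-05) and Pias1 (0.18, adjusted p = 0.000257), which restrain Stat signalling, and Socs3. Socs3, which blocks Jak kinases and is induced through Stat3, was at 2.87 to 4.72 TPM in CAC, with a median of 3.51, at 1.57, 2.1, 1.49, 1.46 and 1.84 TPM in NCAC, and at 2.31, 1.56, 1.17, 1.36 and 1.69 TPM in mock. Every CAC library lay above every NCAC and mock library, and the log2 fold change against mock was 0.82 (adjusted p = 2.8e-06). Stat3, which carries the signal of interleukin-6 cytokines, was higher in CAC as well, at 0.22 (adjusted p = 0.000609). Of the 12 upstream sensing genes tested none passed. In NCAC against mock at 8 wk 0 of the 61 genes were called in limma, where 18 were lower at an unadjusted p under 0.05 against 3.76% of all symbols, with a median of -0.11. In CAC against NCAC at 8 wk 9 were higher and 0 lower, where 7.76% of all symbols were higher and 4.01% lower, and Socs3 was among them at 0.77.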

How the data were processed

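RNA of the cerebellum was sequenced in 62 libraries of 12 groups. Per the labels' protocols, RNA was extracted with Trizol and libraries were made with the TruSeq stranded mRNA kit and run on an Illumina NovaSeq instrument. The authors deposited TPM values per gene symbol, made per the submitters' processing notes on build mm10. Which aligner, counting tool and annotation were used is not given in the sources used here. Every library sums to 1e+06 TPM, so depth is unknown, and a rise of abundant genes lowers the TPM of the rest. Reads shared between copies such as Ifit3 and Ifit3b, and which strand was counted, leave their values uncertain. Groups and replicate numbers came from the sample descriptions. The treatment field was left aside, since it gives cachectic cells in all samples, and the extraction text refers to a time point after LLC cell injection, which was not used either.

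Tests ran on log2(TPM + 1) of 14399 symbols whose mean was at least 1 TPM. A fold change on this scale understates the change of low genes. All groups were fitted together in limma 3.58.1 (R 4.3.3; lmFit, contrasts.fit and eBayes with trend, 50 residual degrees of freedom, no covariate). The 18 comparisons had two-sided p-values adjusted by the Benjamini-Hochberg method over all tested symbols, with a threshold of 0.05. The fit was tested on simulated data. The members and lists were chosen with earlier results of these data known. Library values are given for members called in any comparison and for those with the smallest p of each role in CAC or NCAC against mock at 8 wk or CAC against mock at 2 wk. Some genes that were listed are not reported here by name. Coordinates are of GRCm38, and promoters are from RefSeq. Alternatives tried were a pseudocount of 0.1, testing without a filter, a minimum of 5 TPM, median-of-ratios scaling, quantile normalization, removal of mitochondrially encoded genes, sample weights, the compared groups alone, a replicate block and leaving out libraries.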

Additional observations from a re-analysis of the deposited data

Results flagged for a closer look

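In 4 of 24 groups of role means (2 roles in 12 groups) a library stood apart by Dixon's test, which chance alone does in about 1 of 20 groups. For the mean log2(TPM + 1) of the type I genes these were mock 2 wk replicate 5 at 3.515, with the nearest library of its group at 2.216, NCAC 6 wk replicate 5 at 3.302, with the nearest at 2.246, and CAC 8 wk replicate 7 at 3.494, with the nearest at 2.383. For the mean of the GTPase genes it was mock 2 wk replicate 5 at 2.383, with the nearest at 1.833. Among single members, tested on TPM and not on its log2, 65 of 360 pairs of a member and a group had such a library (18.1%). High values stand out more on that scale, so this share is not on the same footing as that of the role means. Of these, 18 were NCAC 6 wk replicate 5, 16 mock 2 wk replicate 5 and 14 CAC 8 wk replicate 7. The members share their libraries, so these counts are not independent.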

How the results depend on the processing

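Of 911 refits of the 23 calls of a member in a comparison, 859 kept the call and 52 lost it, and 0 changed sign. Most of these refits left out 1 library, and settings in which a member was not tested are not among them. For CAC against mock at 8 wk the 8 calls became 1 with a minimum of 5 TPM, where the called GTPase genes and Irf1 had lower means and were not tested. They became 5 with the compared groups alone, 4 without mock replicates 3 and 5 and 3 without mock replicates 1 and 5. With 1 library left out they were between 7 and 15. For the mean of the 4 weeks the 12 calls became 4 with a minimum of 5 TPM, which leaves fewer members to test, and 9 to 16 with 1 library left out. The 1 call of CAC against NCAC at 6 wk became 0 with no filter, median-of-ratios scaling, quantile normalization, mitochondrially encoded genes removed, the compared groups alone, or without the 4 libraries highest in type I genes, and 0 to 1 with 1 library left out. The 0 calls of CAC against NCAC at 8 wk became 2 with sample weights and 0 to 1 with 1 library left out, and those of the change of CAC against mock between 8 and 2 wk became 0 to 1. The 2 calls of CAC at 8 against 2 wk became 1 with the compared groups alone or a replicate block, and 1 to 5 with 1 library left out. The causes were not tested. The settings with 2 or more libraries left out were chosen after seeing the data. For refits with libraries left out, the share of all symbols called is not given here. The replicate block gave 8 calls for CAC against mock at 8 wk and 14 for the mean of the 4 weeks. Libraries of a week with the same number had a median correlation of their deviations between -0.00 and 0.06 by number. Single pairs lay between -0.24 and 0.40. Pairs with different numbers were not compared with these, so whether the numbers pair the samples was not settled. TPM keeps no depth, so the counting error of low members such as Usp18 and Iigp1 is unknown.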
